A study of Mus musculus with 48 samples.

Results

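The 8 genes described here encode proteins of the myelin of the central nervous system and of the oligodendrocytes that make it: Mbp, Mog, Mag, Mobp, Cnp, Mal, Cldn11 and Gjc3. They were taken by symbol from the array's annotation, were all found, and are 8 of the 18193 genes named there. Together they have 23 probe sets, groups of short probes for 1 transcript, with a single gene symbol, and the probe set with the highest mean over the 48 arrays stood for its gene while the others served as a check.

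Hippocampus (HPC) was dissected from adult male C57BL/6J mice (strain C57BL/6 in the labels), 1 array per mouse, and the question was which genes chronic intermittent ethanol (CIE) changes over withdrawal. CIE mice were injected with ethanol (1.6 g/kg) and pyrazole (1 mmol/kg), which blocks ethanol breakdown, and then breathed ethanol vapor (10 to 13 mg/l) for 16 h a day over 4 days, followed by 7 days without ethanol, in 4 such cycles. Control (Ctrl) mice were handled alike, received saline with the same pyrazole, and breathed air. Each treatment had 6 mice at each of 4 times after the last chamber session (0 h, 8 h, 72 h and 7 d), which gave 8 groups.

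Oligodendrocytes wrap axons in many layers of membrane, and the mRNAs of myelin proteins are among the most abundant of these cells. The layers are pressed together on their cytoplasmic side by basic proteins, leave channels of cytoplasm at their margins, and are sealed by tight junctions. The hippocampus holds myelin in the alveus, the fimbria and along its fiber layers, next to the neurons and glia that fill the rest of the tissue. In such a bulk sample, fewer oligodendrocytes and less of an mRNA in each oligodendrocyte cannot be told apart.

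The values are log2 expression, on which a difference of 1 is a doubling, and they can be compared between mice for a probe set but not between genes. The 48 arrays had nearly equal medians, from 6.60 to 6.63, and any pair of arrays correlated at 0.974 to 0.998 over all probe sets. Of 9 hippocampal neuron markers, 7 lay above the array's median on all 48 arrays, while Dsp and C1ql2, which mark granule cells of the dentate gyrus, did so on 46. The exceptions were Ctrl mice 18 and 22 of the 7 d group, labelled as hippocampus like the rest. Dsp was at 6.22 and 6.01 in these mice against 7.79 to 12.34 in the other 46, and C1ql2 at 6.13 and 6.25 against 6.80 to 10.93. Neurod6 and Fibcd1 also lay below the other 46 in both mice, and Zbtb20 in mouse 18 alone. Prox1 was at 7.16 and 7.41, within the 7.06 to 10.31 of the others, and Wfs1, Spink8 and Man1a lay within their ranges too. The mean of 8 markers of the striatum, another forebrain region, was 9.90 and 10.19 in these mice, while their 4 group mates lay between 8.30 and 8.42. In the other groups the highest mouse was Ctrl mouse 16 of 72 h, at 9.09. The main results that rest on these mice are given with and without them. The count of members called by the average over the times and by the moderated F, given below, was 1 either way.

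Mbp, whose product binds the cytoplasmic faces of the membrane together in compact myelin, ran from 13.50 to 13.97 over the 8 groups and all 48 mice. Mobp, another basic protein of compact myelin, ran from 11.79 to 13.08. Cnp, a phosphodiesterase of the cytoplasmic channels, ran from 12.18 to 13.18. These 3 genes and Mal, Cldn11, Mog and Mag lay above the array's median on all 48 arrays. Gjc3, a connexin gene of oligodendrocytes and Schwann cells, ran from 5.11 to 8.02 and exceeded the median on only 11 arrays, so its probe set is a dim one. Ordered by level, neighbouring groups differed by less than the pooled SD within groups for Mbp, Mog, Mag and Cnp. This SD is the spread of single mice, so it does not test the order of group means. The CIE mice of 8 h had the highest mean in Mbp, Mog, Mobp, Mal and Cldn11. The Ctrl mice of 8 h had the lowest in Mbp, Mog and Mag. In Mobp, Mal and Cldn11, 1 gap among 7 passed that SD, the one below the CIE mice of 8 h. These gaps were 0.29, 0.27 and 0.32 against SDs of 0.27, 0.26 and 0.28. In Gjc3 the gap between the Ctrl mice of 72 h and of 7 d passed it (0.61 against 0.48).

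**Figure D1:**
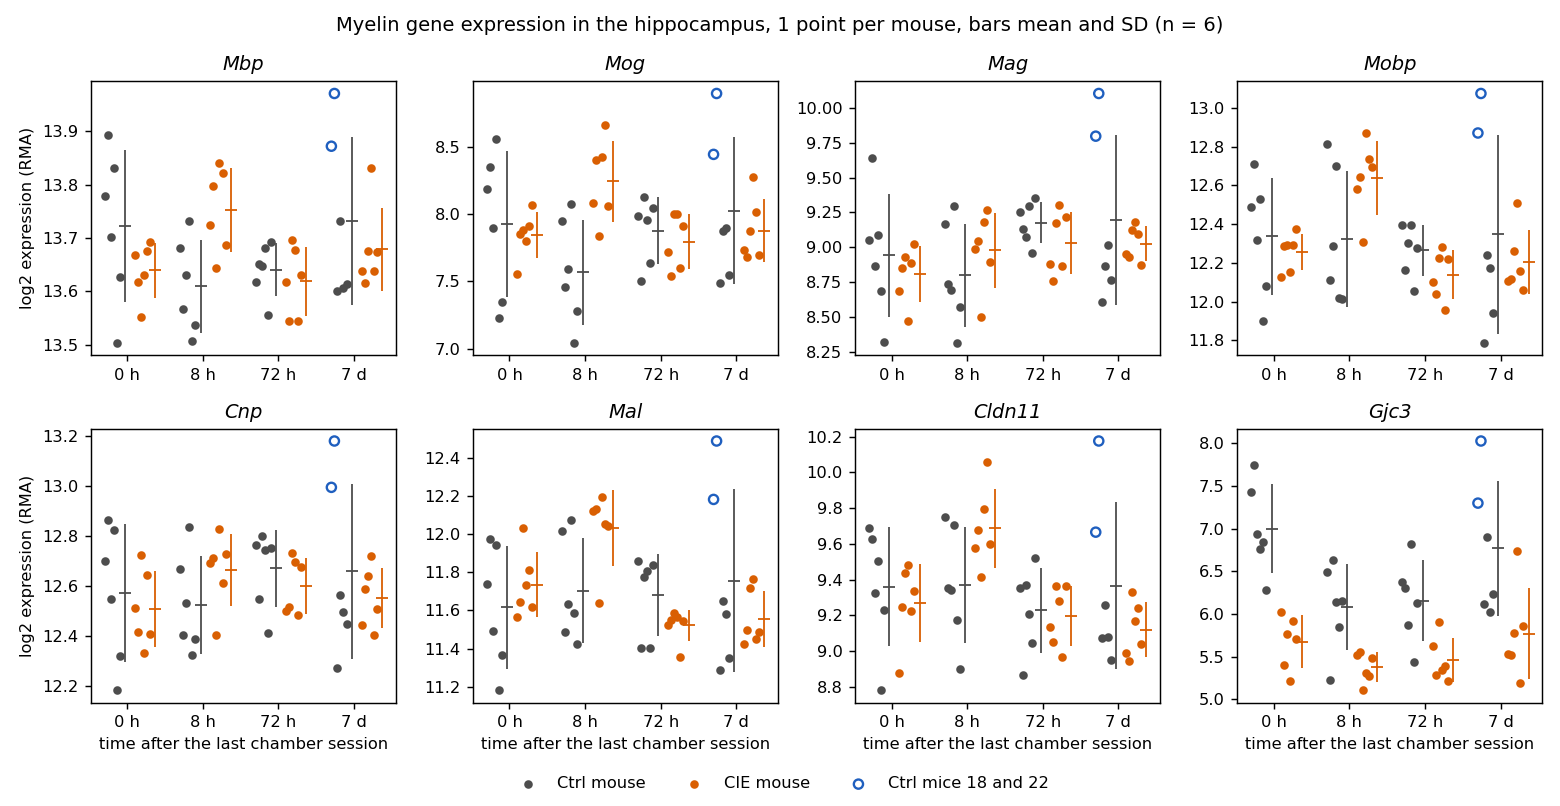
Log2 expression (vertical axes, a scale for each gene) of the 8 genes by time after the last chamber session, 1 point per mouse, with the mean and SD of the 6 mice of each group beside the points. Gjc3 at 0 h is the panel and time where Ctrl and CIE mice do not overlap, and Ctrl mice 18 and 22 (open circles) are the highest Ctrl mice of 7 d in every panel.

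CIE mice differed from Ctrl mice past the threshold for 1 of the 8 genes, Gjc3, at 1 of the 4 times, 0 h. A probe set counted as called at a Benjamini-Hochberg adjusted p of at most 0.01 in limma's moderated test, with all 45037 probe sets in the adjustment, and 1.92% of them met this at 0 h. At 8 h, where 2.15% of probe sets were called, 0 of the 8 genes were, while 5 (Mbp, Mog, Mobp, Mal and Gjc3) had an unadjusted p under 0.05 against 17.9% of all probe sets. The share called at 72 h was 0.00666%, with 0 of 8 genes called and Gjc3 alone at an unadjusted p under 0.05, beside 9.36% of all probe sets. The corresponding share at 7 d was 1.34%, with 0 of 8 called and again Gjc3 alone at an unadjusted p under 0.05, beside 20.3% of all probe sets. A moderated F over the 4 times called Gjc3 (adjusted p = 5.14e-05) and 7.67% of all probe sets.

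The other 7 genes lay on the same side of 0 at 3 of the 4 times. At 0 h their log2 differences, CIE minus Ctrl, lay between -0.13 and 0.12, with limma standard errors (SE) of 0.06 to 0.20. At 8 h all 7 differences were above 0, from 0.14 to 0.68, and 4 of them (Mbp, Mog, Mobp and Mal) had an unadjusted p under 0.05 with none called. At 72 h all 7 were below 0, from -0.16 to -0.02, and at 7 d likewise, from -0.25 to -0.05. With Gjc3 included, the median difference of the members was -0.08, 0.25, -0.11 and -0.16 in the order of the times, beside medians over all 18193 genes of 0.04, 0.01, 0.01 and 0.03. Since the 7 genes rise and fall together from mouse to mouse, as given further on, they are not 7 separate observations of a direction.

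**Figure D2:**
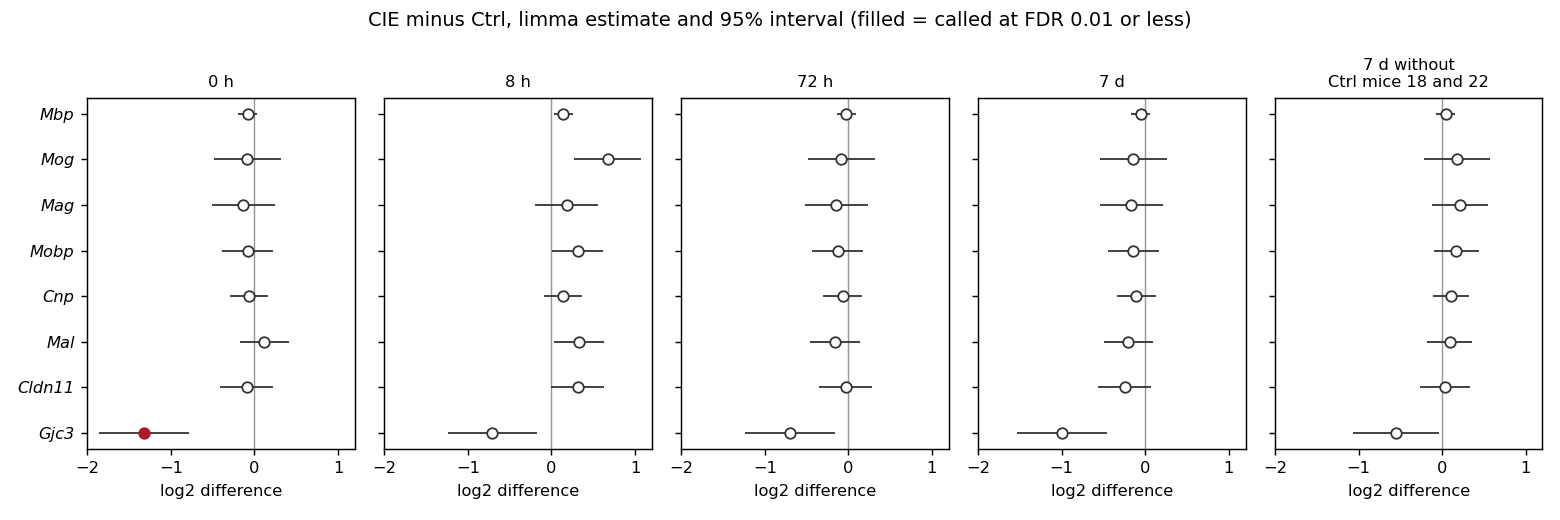
Log2 difference, CIE minus Ctrl, of the 8 genes at each time, as the limma estimate (circle) with its 95% interval (line), and at 7 d also without Ctrl mice 18 and 22. The called value (filled) is Gjc3 at 0 h, -1.32, and the 7 other genes lie right of 0 at 8 h and turn from left to right of 0 at 7 d when the pair of mice is left out.

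Among the compact myelin genes, Mbp varied least between mice in the probe set that stood for it. At 8 h its Ctrl mice ran from 13.51 over a median of 13.60 to 13.73, and its CIE mice from 13.64 over 13.76 to 13.84. CIE mice were the higher in 32 of 36 pairs of mice, and the groups overlapped. The difference of 0.14 (SE 0.06) had a limma adjusted p = 0.154. The 95% interval ran from 0.03 to 0.26, and at the other times the difference was -0.08, -0.02 and -0.05. The pooled SD of Mbp within groups, 0.10, was smaller than that of all but 18.5% of genes, whereas the other 7 genes exceeded 84.0% to 98.6% of genes. The next brightest Mbp probe set, 1419646_a_at, spread more in each group, with an SD of 0.28 against 0.16 in Ctrl mice of 7 d. Whether the bright signal narrows the spread of the Mbp probe set used was not tested.

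Mobp at 8 h ran from 12.02 over a median of 12.20 to 12.81 in Ctrl mice and from 12.31 over 12.67 to 12.87 in CIE mice. These groups overlapped widely, with CIE mice higher in 27 of 36 pairs. The difference was 0.32 (SE 0.15, limma adjusted p = 0.257). Mal, a proteolipid that sorts membrane to myelin, ran at 8 h from 11.42 over 11.61 to 12.07 in Ctrl mice and from 11.64 over 12.09 to 12.20 in CIE mice. Its CIE mice lay close together except mouse 23, which lay below them, and the difference was 0.33 (SE 0.15, limma adjusted p = 0.217). Cnp ran from 12.32 over 12.47 to 12.84 in Ctrl mice and from 12.40 over 12.70 to 12.83 in CIE mice of 8 h, all within the Ctrl range. It differed by 0.14 (SE 0.11) at 8 h and by -0.11 to -0.07 at the other times.

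Of the proteins on the myelin surface, Mog, an immunoglobulin-like protein of the outermost layer, had the largest of the 7 differences. At 8 h its Ctrl mice ran from 7.05 over a median of 7.53 to 8.07, and its CIE mice from 7.83 over 8.24 to 8.66. CIE mice were higher in 33 of 36 pairs, and the groups overlapped between 7.83 and 8.07. The difference of 0.68 (SE 0.20), a 1.60-fold higher level, had a limma adjusted p = 0.0352 and was not called. Within the 6 hybridization sets, each of 7 or 8 arrays that were inferred from shared values to have been processed together and hold at most 1 array of a group, the difference ran from -0.11 to 1.12 and was above 0 in 5. With arrays weighted by their quality it was 0.71 and called (adjusted p = 0.00106), and over the 12 fits that left out 1 mouse it was not, with an adjusted p from 0.0191 to 0.124. Mag, an adhesion protein that faces the axon, ran at 8 h from 8.31 over 8.71 to 9.30 in Ctrl mice and from 8.50 over 9.02 to 9.27 in CIE mice, all within the Ctrl range. Its difference was 0.18 (SE 0.19), with CIE mice higher in 23 of 36 pairs.

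Cldn11 and Gjc3, a tight and a gap junction gene of oligodendrocytes, gave opposite signs at 8 h, and neither was called. The second probe set of Gjc3 was at -0.04 at that time. Cldn11, which forms the tight junction strands of myelin, ran at 8 h from 8.90 over a median of 9.35 to 9.75 in Ctrl mice and from 9.41 over 9.64 to 10.06 in CIE mice. Its difference was 0.32 (SE 0.16, limma adjusted p = 0.284), and the other times gave -0.09, -0.03 and -0.25. Gjc3 had a lower mean in CIE than in Ctrl mice at each of the 4 times.

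At 0 h, Gjc3 ran from 6.28 over a median of 6.89 to 7.74 in Ctrl mice and from 5.21 over 5.74 to 6.02 in CIE mice. Every CIE mouse lay below every Ctrl mouse, a separation in that direction that 0.584% of all probe sets showed. Its mean fell from 7.00 ± 0.52 to 5.67 ± 0.31 (SD, n = 6 each), a 2.50-fold lower level (log2 difference -1.32, SE 0.27, limma adjusted p = 0.00215), and 1.00% of all probe sets were called lower. At 8 h Ctrl mice ran from 5.23 over 6.14 to 6.63 and CIE mice from 5.11 over 5.40 to 5.56, with CIE mice lower in 31 of 36 pairs. At 72 h Ctrl mice ran from 5.43 over 6.22 to 6.82 and CIE mice from 5.21 over 5.37 to 5.90, with CIE mice lower in 33 of 36 pairs. The groups overlapped at both times, and the differences were -0.71 (SE 0.27, limma adjusted p = 0.121) and -0.70 (SE 0.27, limma adjusted p = 0.348). At 7 d Ctrl mice ran from 6.03 over 6.57 to 8.02 and CIE mice from 5.20 over 5.66 to 6.74, overlapping, with CIE mice lower in 33 of 36 pairs, and the difference is given below with and without Ctrl mice 18 and 22. Averaged over the 4 times the difference of Gjc3 was -0.93 (SE 0.13, limma adjusted p = 2.34e-06), where 10.3% of all probe sets were called and 5.31% were called lower. In the same average the other 7 genes lay between -0.07 and 0.09, with 0 called and 0 at an unadjusted p under 0.05. Without Ctrl mice 18 and 22 the average was -0.82 for Gjc3 (SE 0.12, limma adjusted p = 4.65e-06), and the 7 lay between 0.02 and 0.17, again with 0 at an unadjusted p under 0.05.

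The call of Gjc3 at 0 h was a narrow one. The fit with the hybridization set as a block leaves out Ctrl mouse 2, which lies in no set. In that fit the difference was -1.18 (SE 0.28) and its limma adjusted p = 0.0221. In the 5 sets that held both groups, Gjc3 was lower in CIE mice in all, from -1.62 to -0.36. Without Ctrl mouse 2 alone the difference was -1.17 (limma adjusted p = 0.0110), so the block and this omission are not separated. Without CIE mouse 57 the limma adjusted p was 0.0106. Ctrl mouse 2 also had the highest mean of the members among Ctrl mice of 0 h. Its mean of 10 thalamus markers was 8.44, also the highest of its group, while the highest mouse of any other group was at 7.94. Of these markers, Shox2 was called lower in CIE mice at 0 h (-1.43, SE 0.34, limma adjusted p = 0.00826), beside 0.390% of genes called lower. The part of the dissected tissue in the values of 0 h was not tested. The second probe set of Gjc3, 1422042_at, gave -0.92 at 0 h (SE 0.29, limma adjusted p = 0.0460), -0.04 at 8 h, -0.28 at 72 h and -0.995 at 7 d (limma adjusted p = 0.0316), where it was -0.53 without Ctrl mice 18 and 22 (limma adjusted p = 0.377). With the set as a block, and so without Ctrl mouse 2, its difference at 0 h was -0.58 (SE 0.26, limma adjusted p = 0.265). Its mean over the times was -0.56 (limma adjusted p = 0.00428).

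The promoter of Gjc3, the gene called, is shown with that of Mobp, which was added after its motif matches were seen. Mobp holds the most matches of the members searched and does not stand for the others. Both are the 250 bases before the RefSeq transcript start (GRCm38.p6), read along the gene, Gjc3 at chr5:137963099-137963348 on the minus strand and Mobp at chr9:120149492-120149741 on the plus strand. Capitals mark the 6 letters ACAAAG on either strand (CTTTGT on the other), the core bound by SOX factors such as Sox10, a regulator of myelin genes.
Gjc3: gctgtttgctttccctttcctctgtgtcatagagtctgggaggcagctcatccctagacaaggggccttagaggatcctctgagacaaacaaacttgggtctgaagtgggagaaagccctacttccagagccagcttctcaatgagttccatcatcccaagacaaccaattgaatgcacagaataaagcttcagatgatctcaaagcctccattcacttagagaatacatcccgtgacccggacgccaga
Mobp: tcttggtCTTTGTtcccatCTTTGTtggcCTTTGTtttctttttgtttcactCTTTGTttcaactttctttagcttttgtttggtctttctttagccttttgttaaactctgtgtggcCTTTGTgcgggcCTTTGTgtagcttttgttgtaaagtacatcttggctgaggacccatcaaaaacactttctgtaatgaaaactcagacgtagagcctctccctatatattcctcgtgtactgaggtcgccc
Mobp holds 6 matches and Gjc3 holds 0. Mbp is not shown. Among the other members, Cnp holds 1, 2 of the 3 start sites of Mag hold 1 (the same match, since these windows overlap), and Mog, Mal and Cldn11 hold 0, against 16.5% of 32851 mouse promoters of this length with at least 1. The E-box CAGCTG, which reads the same on both strands and is one of the sequences that Olig2 and its partners bind, has 0 matches in these 7 members against 13.0% of promoters. These matches only describe the letters of the windows.

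The probe sets of a gene did not always give the same difference. Of the 8 probe sets of Mbp, 5 with means of 13.04 to 13.67 gave differences of -0.21 to 0.14 over the 4 times. Mbp 1425264_s_at, at a mean of 10.40, gave -0.25 to 0.13, and was at -0.25 at 8 h, where the main probe set was at 0.14. With group means removed, it ran against the mean of the other genes without Gjc3 (Pearson's r = -0.50 over 48 mice, no test). The 5 bright probe sets gave r of 0.89 to 0.93 there, so this one does not check them. Mbp 1425263_a_at, at a mean of 8.30, was lower in CIE mice at every time and was called at 0 h and 7 d. At 0 h its Ctrl mice ran from 8.82 over a median of 9.16 to 10.03 and its CIE mice from 7.50 over 8.06 to 9.04, which overlapped. The difference was -1.10 (SE 0.24, limma adjusted p = 0.00382). With the hybridization set as a block, and so without Ctrl mouse 2, it was -0.95 (limma adjusted p = 0.0377) and not called. At 7 d its Ctrl mice ran from 8.42 over 9.22 to 9.83 and its CIE mice from 7.54 over 7.87 to 8.20, with no overlap, as in 0.693% of all probe sets in that direction. The difference was -1.28 (SE 0.24, limma adjusted p = 0.00170), and without Ctrl mice 18 and 22 it was -1.02 (limma adjusted p = 0.0489) and no longer called. Mbp 1451961_a_at gave -1.26, -0.16, -0.86 and -0.98 over the times (-0.56 in place of -0.98 without Ctrl mice 18 and 22), and was called for the mean of the times alone (-0.81, SE 0.22, limma adjusted p = 0.00775).

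Mobp 1436263_at was the probe set called higher in CIE mice. At 8 h its Ctrl mice ran from 9.26 over a median of 9.68 to 10.01 and its CIE mice from 9.87 over 10.55 to 10.71, with only CIE mouse 23 reaching into the Ctrl range. The difference was 0.79 (SE 0.18, limma adjusted p = 0.00567), beside 1.54% of all probe sets called higher, and with the hybridization set as a block its adjusted p was 0.0123 and the call ended. It was already 0.66 higher in CIE mice at 0 h (limma adjusted p = 0.0229) and -0.41 at 7 d (-0.04 without Ctrl mice 18 and 22), and within CIE mice it fell by 1.05 from 0 h to 7 d, a change that was called (limma adjusted p = 0.00034) beside 0.793% of all probe sets. Over all 23 probe sets, 5 were above 0 and 18 below at 0 h, 18 above and 5 below at 8 h, 0 above and 23 below at 72 h, and 1 above and 22 below at 7 d, beside 56.3%, 50.2%, 54.5% and 55.0% of all probe sets above 0. Without Ctrl mice 18 and 22, 13 were above 0 and 10 below at 7 d. Averaged over the 4 times, 4 of the 23 were called with all mice and 3 without the pair, where the calls of Mbp 1451961_a_at (-0.81 with all mice, -0.71 without, limma adjusted p = 0.0255) and Gjc3 1422042_at (-0.56 and -0.44, limma adjusted p = 0.0160 without) ended and Mobp 1436263_at was called (0.25 and 0.34, limma adjusted p = 0.00134 without).

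**Figure D3:**
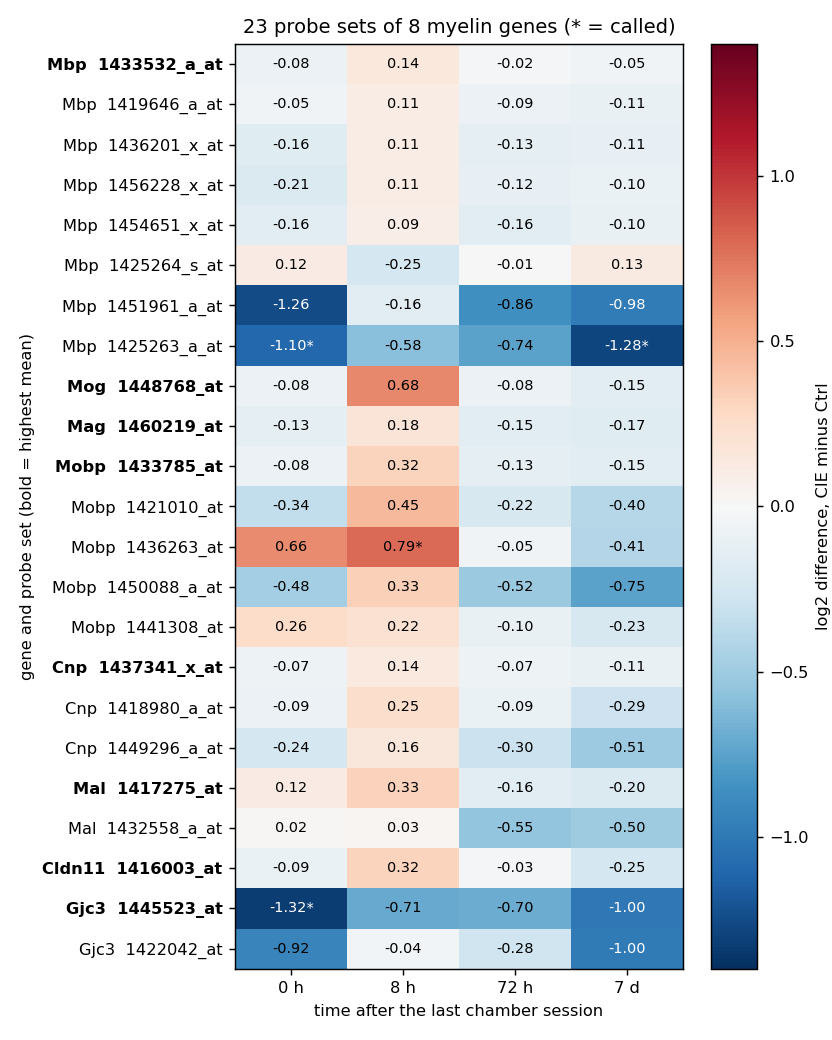
Log2 difference, CIE minus Ctrl (colour and printed value), of the 23 probe sets of the 8 genes (rows, the one with the highest mean of each gene in bold) at each time (columns). Called values carry an asterisk, and the low values gather in Gjc3 and in Mbp 1451961_a_at and 1425263_a_at, while the 5 brightest probe sets of Mbp stay near 0.

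Some of the 23 probe sets varied with Malat1, a long noncoding RNA kept in the nucleus, from mouse to mouse. Averaged over its 7 probe sets, Malat1 was at 10.99 ± 0.35 in Ctrl and 9.96 ± 0.58 in CIE mice (SD, n = 6) at 0 h. The pair of means was 9.83 ± 0.60 and 9.46 ± 0.36 at 8 h, 9.91 ± 0.28 and 9.36 ± 0.47 at 72 h, and 10.70 ± 0.29 and 9.82 ± 0.56 for the mice of 7 d. Of the 7 probe sets, 1 was called lower at 0 h and none at the other times. After the group mean was removed, Pearson's r with Malat1 over the 48 mice was 0.78 for Mbp 1425263_a_at (Spearman's rho 0.78) and 0.78 for Mbp 1451961_a_at (rho 0.75). For Gjc3 r was 0.70 (rho 0.73), and 0.59 (rho 0.67) for its second probe set. Each of these 4 had a permutation p = 1e-05, the smallest that 100000 rearrangements within groups can give, and 3.29e-05 after adjustment of r over 23 probe sets. Without the 2 mice farthest in Malat1, r was 0.75, 0.73, 0.63 and 0.56, and without Ctrl mice 18 and 22 it was 0.79, 0.78, 0.75 and 0.61. Mobp 1450088_a_at and 1421010_at and Mal 1432558_a_at gave 0.59, 0.55 and 0.61, Cnp 1449296_a_at gave 0.53 (adjusted permutation p = 0.000144), and Mbp 1425264_s_at ran the opposite way at -0.42 (adjusted permutation p = 0.00711). The main probe sets of the other 7 genes gave r from -0.07 to 0.31 (adjusted permutation p from 0.0441 to 0.699). The part of Malat1, or of what moves it, in the differences of Gjc3 and of the Mbp probe sets low in CIE mice was not tested.

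**Figure D4:**
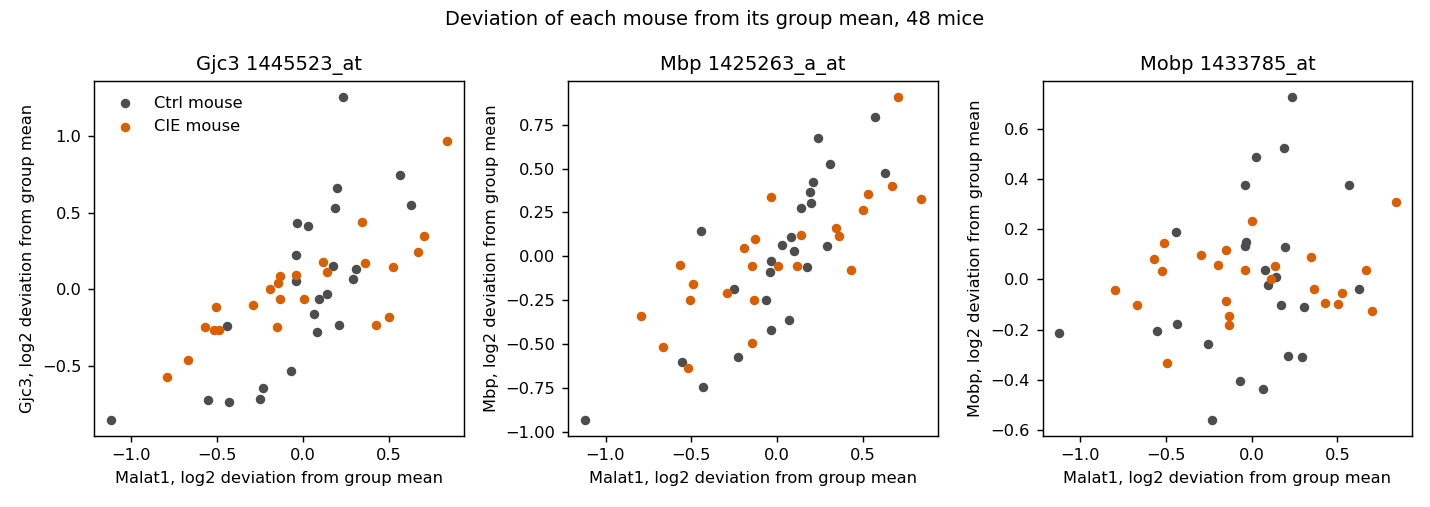
Deviation of each mouse from its group mean on the log2 scale for Malat1 (horizontal axes, mean of 7 probe sets) and for Gjc3, Mbp 1425263_a_at and Mobp 1433785_at (vertical axes), 1 point per mouse in 48 mice. Gjc3 (r = 0.70) and this Mbp probe set (r = 0.78) rise with Malat1, and Mobp (r = 0.21) is spread around it.

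At 7 d the direction of the 7 genes other than Gjc3 changed when the pair of mice that stood apart was left out. The mean over the 8 genes was 10.89 in Ctrl mouse 18 and 11.24 in Ctrl mouse 22, the 4 remaining Ctrl mice lay between 10.03 and 10.39, and mouse 22 deviated most and mouse 18 next upward from their group among all 48 mice for the 7 genes without Gjc3. Mag was at 9.80 and 10.11 in them and at 8.61 to 9.02 in the others, and Mobp at 12.87 and 13.08 against 11.79 to 12.24. With both mice, the 7 genes lay below 0 (-0.25 to -0.05). Without them all 7 lay above 0, by 0.03 to 0.21, with limma adjusted p from 0.586 to 0.953. Gjc3 changed from -0.998 (SE 0.27, limma adjusted p = 0.0200) to -0.55 (SE 0.26, limma adjusted p = 0.296), and its 4 remaining Ctrl mice ran from 6.03 to 6.90 against 5.20 to 6.74 in CIE mice. The share of all probe sets called at 7 d was 0.0244% without the pair, 11 in number.

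Some other marker lists lay apart in this pair, and others did not. Meningeal markers, 10 genes, averaged 6.59 and 6.64 in the pair against 7.22 to 7.42 in the other Ctrl mice, and astrocyte markers, 10 genes, 10.89 and 10.77 against 11.26 to 11.43. Microglia markers averaged 9.46 and 9.37 in the pair, within the 9.29 to 9.66 of the other Ctrl mice. Thalamus markers were at 7.63 and 7.42 against 7.49 to 7.70. In the comparison of all mice at 7 d, 7 of 10 meningeal genes and 7 of 10 astrocyte genes were higher in CIE mice at an unadjusted p under 0.05, with none called, beside 11.6% of all probe sets. Microglia markers had 5 of 9 higher at that p, with Tmem119 called (0.40, limma adjusted p = 0.00728), choroid plexus markers 3 of 9, with Kl called (1.05, limma adjusted p = 0.00385), and thalamus markers 2 of 10, with Plekhg1 called (0.71, limma adjusted p = 0.00768), where 0.852% of genes were called higher. Of 8 striatum genes, 6 were lower beside 8.79% of all probe sets, with 1 called (Drd1a, a dopamine receptor gene, -1.43, limma adjusted p = 0.00396) beside 0.176% of genes called lower. Without the pair none of these 4 was called. At an unadjusted p under 0.05, 4 meningeal, 1 astrocyte, 3 microglia, 2 choroid plexus and 1 thalamus genes were then higher. At that p 1 striatum and 1 choroid plexus gene were lower. The share of all probe sets at that p was not computed without the pair. Of the 9 choroid plexus genes, 1 lay above the median probe set on all arrays. The part of the dissected tissue in the values of the myelin genes at 7 d was not tested.

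The 7 genes other than Gjc3 varied together between mice of the same group. Over the 48 mice, with group means removed, their 21 pairs had Pearson's r of 0.76 to 0.94 (median 0.86) and Spearman's rho of 0.73 to 0.93, each with an adjusted permutation p of 1.27e-05 for r and 1.33e-05 for rho. The 7 pairs of Gjc3 had r of 0.44 to 0.71 (median 0.65) and rho of 0.34 to 0.64, with adjusted permutation p up to 0.0167 for r and 0.0422 for rho. P-values were adjusted over the 28 pairs. Without the 2 mice farthest from the median of the first gene, the ranges of r were 0.67 to 0.92 and 0.31 to 0.68, and without Ctrl mice 18 and 22 they were 0.65 to 0.91 and 0.19 to 0.59. With the hybridization set removed as well, in the 47 arrays that lie in one, they were 0.75 to 0.94 and 0.42 to 0.68. Mobp was the member closest to the mean of the other 7 (r = 0.96) and Gjc3 the farthest (r = 0.65).

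**Figure D5:**
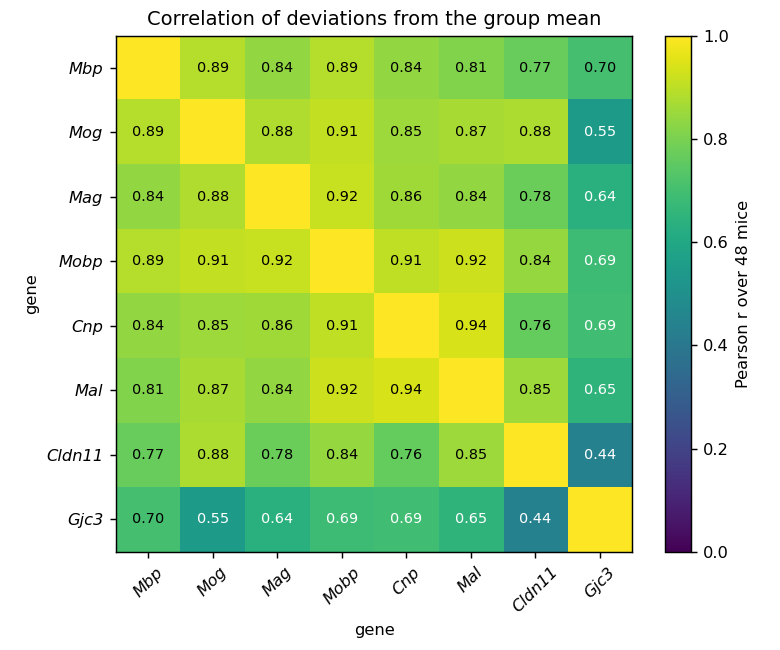
Pearson's r (colour and printed value) between the 8 genes (rows and columns) over 48 mice, on log2 deviations from the group mean. The 7 genes other than Gjc3 form a block from 0.76 to 0.94, and the row of Gjc3 runs from 0.44 to 0.71.

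The 10 genes most like the members, by r with their mean over 48 mice, were Ermn (0.96), Prr18 (0.94), Tmem88b (0.93), Ugt8a (0.93), Aspa (0.92), Tspan2 (0.92), Il33 (0.92), Ppp1r14a (0.92), Gatm (0.91) and Prr5l (0.91). They are given as a description, without a test, since they were picked by this value. Of the 10, 6 are on the lists of myelin and oligodendrocyte genes used here, among them Ugt8a, which makes the galactosyl lipids of myelin, and Aspa, which breaks down N-acetylaspartate. Without Ctrl mice 18 and 22 the same 10 genes ranked highest.

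Spread between mice was wider in Ctrl than in CIE mice for all 8 genes at 0 h, 8 h and 7 d and for 6 of 8 at 72 h, beside 75.9%, 59.6%, 58.8% and 51.0% of all probe sets. For the mean of the 7 genes without Gjc3, the SD was 0.32 in Ctrl and 0.10 in CIE mice at 0 h, and 0.44 and 0.13 at 7 d. Without mice 18 and 22 the latter SD of Ctrl mice was 0.14, and 4 of 8 genes were wider in Ctrl mice. These spreads were not tested.

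Change of the CIE difference over time was tested as an interaction for each pair of times, and 0 of the 8 genes were called in any of the 6. From 0 h to 8 h all 8 differences moved upward, with 2 at an unadjusted p under 0.05: Mog by 0.76 (SE 0.28, limma adjusted p = 0.238) and Mbp by 0.23 (SE 0.08, limma adjusted p = 0.220), beside 0.0333% of probe sets called and 11.8% at that unadjusted p. From 8 h to 72 h, 4 genes had a downward change at an unadjusted p under 0.05, where 0.0222% of probe sets were called and 8.57% passed unadjusted. From 8 h to 7 d it was 5 genes with all mice, where 0.0533% were called and 11.4% passed unadjusted, and none of the 7 genes other than Gjc3 without Ctrl mice 18 and 22. From 0 h to 72 h, from 0 h to 7 d and from 72 h to 7 d, 0 of the 8 genes had an unadjusted p under 0.05, where 0.0355%, 0.0600% and 0% of probe sets were called. Without Ctrl mice 18 and 22, the change of Gjc3 from 0 h to 7 d was 0.77 (SE 0.34, limma adjusted p = 0.448).

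Within a treatment, 0 of the 8 genes were called between times by limma. In CIE mice the 7 genes other than Gjc3 were all higher at 8 h than at 0 h, by 0.11 to 0.42, and Mobp, Mal and Cldn11 had an unadjusted p under 0.05, where 2.86% of probe sets were called and 21.6% passed unadjusted. Cldn11 gave 0.42 (SE 0.16, limma adjusted p = 0.0976). In Ctrl mice the same comparison gave -0.36 to 0.09 for these 7 genes and -0.92 for Gjc3 (SE 0.27, limma adjusted p = 0.0347), where 1.12% of probe sets were called. Gjc3 in Ctrl mice was also at -0.84 from 0 h to 72 h (limma adjusted p = 0.0621) and at 0.61 from 72 h to 7 d (limma adjusted p = 0.234), where 0.833% and 0.0799% were called. From 0 h to 7 d in Ctrl mice no member reached an unadjusted p under 0.05 (0.211% called), and the 7 other genes lay between 0.01 and 0.25. Without Ctrl mice 18 and 22 these 7 lay between -0.30 and -0.08, with Mobp at -0.30 (SE 0.13, limma adjusted p = 0.382) and Gjc3 at -0.68 (SE 0.26, limma adjusted p = 0.285) at an unadjusted p under 0.05. From 72 h to 7 d without the pair, Gjc3 was at 0.16 (limma adjusted p = 0.881), and Mag at -0.36 (limma adjusted p = 0.476) and Cnp at -0.23 (limma adjusted p = 0.496) had an unadjusted p under 0.05. In CIE mice none did from 0 h to 72 h, from 0 h to 7 d or from 72 h to 7 d, where 1.13%, 0.793% and 0.00666% of probe sets were called. The Ctrl mice of 0 h enter both the CIE difference of Gjc3 at 0 h and its change over time, and these values are not independent.

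Further genes of myelin and of the oligodendrocyte lineage were first compared by treatment within each time. Of 16 other genes of myelin structure, such as Tspan2 and Ermn, 0 were called by limma at any time. At 8 h, 4 were higher at an unadjusted p under 0.05, beside 9.11% of all probe sets. Of the 16, 14 were above 0 at 8 h (median 0.12) and 15 below 0 at 72 h (median -0.13). Of the 9 genes on the myelin lipid list, 0 were called by limma and 1 had an unadjusted p under 0.05 (lower, at 0 h). Their medians were -0.09, -0.01, -0.16 and -0.15 over the times. This list includes Gjb1, a connexin gene that is also on the list of myelin structure, so these lists overlap. Of 19 other oligodendrocyte genes, 1 was called lower at 0 h: Serpinb1a, a protease inhibitor gene, at -0.76 (SE 0.17, limma adjusted p = 0.00524). At an unadjusted p under 0.05, 6 of 19 were lower at 0 h, beside 9.00% of all probe sets. With 1 probe set per gene, 0.390% of genes were called lower at 0 h and 1.25% higher. Of 9 lineage factors, such as Sox10 and Olig2, 0 were called and 1 had an unadjusted p under 0.05 (lower, at 0 h), with medians of -0.01, 0.07, -0.08 and -0.11. At 7 d the medians of these 4 lists, -0.08, -0.15, -0.15 and -0.11, became 0.10, 0.13, 0.06 and 0.10 without Ctrl mice 18 and 22. Averaged over the 4 times, Serpinb1a (-0.42, limma adjusted p = 0.000338) and Lpar1, a lysophosphatidic acid receptor gene (-0.51, limma adjusted p = 0.00196), were called among these 4 lists, where 1.91% of genes were called lower. From 0 h to 8 h in CIE mice, 3 genes of these lists were called higher, where 1.68% of genes were: Ermn, a cytoskeletal protein gene of oligodendrocytes (0.78, limma adjusted p = 0.00248), Jam3, a junction adhesion gene (0.50, limma adjusted p = 0.00882), and Cryab, a small heat shock protein gene (0.57, limma adjusted p = 0.00156).

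Oligodendrocyte precursors, the dividing cells that give rise to oligodendrocytes, were followed by 11 markers, of which 2 were called between CIE and Ctrl mice at a single time. Bmp4, a secreted growth factor made by newly committed cells, was higher in CIE mice at 0 h (0.54, SE 0.12, limma adjusted p = 0.00467). Matn4, a matrix protein gene, was higher at 8 h (0.39, SE 0.08, limma adjusted p = 0.00232), where 1.60% of genes were called higher. Averaged over the times, Bmp4 (0.28, limma adjusted p = 0.000687), Matn4 (0.15, limma adjusted p = 0.00759) and Vcan, a matrix proteoglycan gene (0.15, limma adjusted p = 0.00583), were called, where 5.99% of genes were called higher. Without Ctrl mice 18 and 22 the calls of Bmp4 and Vcan held and that of Matn4 ended. Over the times the median of the 11 was 0.09, 0.10, -0.15 and 0.14, and that of all genes 0.04, 0.01, 0.01 and 0.03.

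Between times, precursor markers were called in both treatments. Gpr17, a receptor gene of cells on the way to oligodendrocytes, was higher in Ctrl mice than at 0 h by 0.49 at 8 h, 0.80 at 72 h and 0.84 at 7 d (limma adjusted p = 0.00329, 4.66e-06 and 7.46e-07), where 0.324%, 0.319% and 0.0934% of genes were called higher. Vcan was called higher in Ctrl mice at 72 h (0.35, limma adjusted p = 0.00921) and at 7 d (0.44, limma adjusted p = 0.00157), and of these calls at 7 d only that of Gpr17 held without Ctrl mice 18 and 22. In CIE mice, Gpr17 (0.61, limma adjusted p = 0.00011) and Pdgfra, the receptor gene that defines precursors (0.40, limma adjusted p = 0.00506), were higher at 7 d than at 0 h, where 0.544% of genes were called higher. Matn4 was higher at 8 h (0.45, limma adjusted p = 0.000447). Bmp4 in CIE mice fell by 0.61 from 0 h to 72 h (limma adjusted p = 0.00181), where 0.649% of genes were called lower, and was higher by 0.87 at 7 d than at 72 h (limma adjusted p = 0.000205), where 0.0165% were called higher. Within a treatment, the comparisons with 0 h share the mice of 0 h, in Ctrl mice with mouse 2 among them, so they are not independent.

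The mean of each list was set against the mean of the 7 genes over the 48 mice, again without group means and over 15 lists. The 2 mice farthest in the mean of the 7 genes were Ctrl mice 18 and 22, so both omissions below leave out the same mice. Without the 2 farthest mice, the group means removed still held them. Without the pair, the group means were taken anew, and the 2 values are not separate checks. Other myelin structure genes, myelin lipid genes and other oligodendrocyte genes gave Pearson's r of 0.96, 0.96 and 0.97 (rho 0.93, 0.94 and 0.97), and lineage factors 0.87 (rho 0.82), each with an adjusted permutation p of 3.75e-05, and without the 2 mice farthest in the 7 genes r was 0.84 to 0.96. Precursor markers gave 0.61 (rho 0.57, adjusted permutation p = 0.00045), 0.51 without the 2 farthest mice and 0.45 without Ctrl mice 18 and 22. Striatum markers gave 0.61 (rho 0.44, adjusted permutation p = 0.0064), 0.41 without the 2 farthest mice, and 0.22 without the pair. Neuron markers gave 0.38 (rho 0.36, adjusted permutation p = 0.0453 for r and 0.0451 for rho), 0.42 without the 2 farthest mice and 0.43 without Ctrl mice 18 and 22. Microglia markers gave -0.04 (rho -0.04, adjusted permutation p = 0.796). Schwann cell markers, 3 genes, gave 0.48 (rho 0.37, adjusted permutation p = 0.0119 for r and 0.0549 for rho), 0.40 without the 2 farthest mice, and 0 of the 3 lay above the median probe set on every array. The 6 remaining lists, of astrocytes, endothelium, choroid plexus, meninges, thalamus and blood, gave r from -0.26 to 0.22 with adjusted permutation p of at least 0.339.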

How the data were processed

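Values are the authors' log2 expression values, deposited for 48 hippocampal samples of 1 mouse each on Affymetrix mouse whole-genome arrays. Per the study's methods, the authors applied robust multi-array average (RMA) and quantile normalization within each hybridization batch, quantile normalized all arrays together, and removed the batch with ComBat. Tests run afterwards take the removed batch effect as known. Tool versions were not given in the sources used here. No further normalization was applied. The number of arrays limits the precision.

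Hybridization batches are not labelled. Sets were inferred as arrays sharing at least 5 exactly equal values (tolerance 1e-08), which gave 6 sets of 47 arrays. The fit with the set as a block used these 47 arrays and so left out Ctrl mouse 2 of 0 h. A model holding 1 mean for each of the 8 groups was fitted to all 45037 probe sets in limma 3.58.1 (R 4.3.3), with two-sided moderated tests from lmFit and eBayes, checked on simulated data, and Benjamini-Hochberg adjustment over all probe sets. Groups follow the labels. Correlations used 100000 two-sided permutations within groups.

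Of the probe sets, 34945 had 1 symbol, 932 several and 9160 none, and 153 of 170 entries on the lists were matched. The others are not analysed here. Gjb1 was entered both as a myelin structure and as a myelin lipid gene. Tcf7l2 was entered both as a lineage factor and as a thalamus marker, so these lists are not fully separate. Array control probe sets for RNA quality are not analysed here. Members and lists were chosen with earlier results of these data known, and the hippocampal markers, the Malat1 values, the Mobp promoter, the list genes named between times and the named further probe sets were added after values were seen. By rule, all members, up to 4 called genes of each other list and comparison, the 10 genes most like the members and the promoters of called members were named. Alternatives were an array-weighted fit, a trended robust variance, renewed quantile normalization, a filter on dim probe sets, the 12 arrays of a time alone, the set as a block, other probe sets, and omission of mice.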

Additional observations from a re-analysis of the deposited data

Results flagged for a closer look

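Dixon's ratio, the gap of the highest or lowest mouse to its neighbour over the range of its group, was computed for the 8 genes in 8 groups, and passed its 95% limit for 6 mice in 3 of 64 cases, where chance flags about 1 in 20. Mbp was highest in CIE mouse 59 at 7 d (0.726), at 13.83 against a group median of 13.66. Mal was lowest in CIE mouse 23 at 8 h (0.726), at 11.64 against a median of 12.09, and the CIE difference of Mal at 8 h was 0.33 with this mouse. Mal was also lowest in CIE mouse 61 at 72 h (0.720), at 11.36 against a median of 11.55. Their causes were not tested.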

How the results depend on the processing

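Gjc3 at 0 h kept its sign under every alternative that gave a value, and the call did not hold in several. The count of members called at 0 h was 1, and it was 0 with only the 12 arrays of the time (Gjc3 adjusted p = 0.0147), 0 without dim probe sets, which leaves out Gjc3, 0 with the hybridization set as a block, 0 with probe set 1422042_at, and 2 with Mbp 1425263_a_at. At 8 h the count of 0 became 2 with array weights (Mog, and Gjc3 at -0.76 with limma adjusted p = 0.00827), 1 with Mobp 1436263_at and 1 with the median over the probe sets of a gene (Mobp). At 7 d the count of 0 became 1 with Mbp 1425263_a_at. For the mean over the times the count of 1 became 0 without dim probe sets, and 2 with Mbp 1451961_a_at or 1425263_a_at. For CIE mice from 0 h to 7 d the count of 0 became 1 with Mobp 1436263_at and 1 with the median over probe sets. The count of 1 by the moderated F became 2 with array weights, Mbp 1425263_a_at, Mobp 1436263_at or the median over probe sets, and 0 without dim probe sets or with Gjc3 1422042_at.

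Over the fits without 1 mouse, the count of members called ran from 0 to 1 at 0 h, from 0 to 0 at 8 h, from 0 to 1 at 7 d and from 1 to 1 for the mean of the times. At 7 d Gjc3 was called without Ctrl mouse 70 (adjusted p = 0.00601) or CIE mouse 59 (adjusted p = 0.00515). The sign of a member changed in 17 of 288 values under the other alternatives and in 8 of 384 without 1 mouse, in all cases where no fit called it. Except where named, the causes were not tested. No paired analysis was possible because mouse numbers are those of single mice and no number occurs in more than 1 group. Signal limits Gjc3, which exceeded the array's median on 11 of 48 arrays.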
